A study of Mus musculus with 9 samples.

Results

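Paneth cells are secretory epithelial cells at the base of small intestinal crypts, and a healthy colon has few or none. They release antimicrobial proteins into the crypt lumen. To describe how this programme behaved in the AOM/DSS model of colitis-associated cancer, 8 of the 21498 gene symbols measured in colon RNA were followed: the alpha-defensins Defa24, Gm10104, Gm15284, Defa17 and Defa22, the lysozyme Lyz1, the ribonuclease Ang4 and the lectin Itln1. The genes were picked by symbol with the levels in these same samples known, mainly the difference of the IgG-treated AOM/DSS mice from Control and that of the anti-S100a9-treated from the IgG-treated mice, so those differences are given below as a description with no test. All 8 symbols were in the files, and 7 of the 8 reached 0.1 FPKM (fragments per kilobase of transcript and per depth of sequencing) in at least 3 samples and entered the fit across genes, Defa22 being the exception.

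The samples were colorectal tissue from 9 male ICR mice, an outbred strain, enrolled at 5 weeks of age, with 3 mice in each of 3 groups. Control mice received neither AOM/DSS nor antibody. Mice of the AOM/DSS + IgG Ab group received 1 intraperitoneal injection of 10 mg/kg azoxymethane (AOM), a colon carcinogen, then 3 cycles of dextran sulfate sodium (DSS), which injures the colon epithelium, in drinking water (2% for 7 days, and 1.5% for 5 days in each later cycle), with 1.5 mg/kg of a negative control IgG antibody every 2 days during the DSS cycles. Mice of the AOM/DSS + anti-S100a9 Ab group received the same AOM and DSS with 1.5 mg/kg of an antibody that neutralizes S100a9, a calcium-binding protein of myeloid cells, on the same schedule. The groups are called IgG Ab and anti-S100a9 Ab below. Mice were killed at the end of week 18. Per the labels, the Control tissue was normal colorectal mucosa and that of both AOM/DSS groups was colorectal adenocarcinoma, while the study's text calls the anti-S100a9 Ab tissue colon mucosa. How much tumor each piece held can therefore not be told apart from the antibody group.

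Alpha-defensins are small cysteine-rich peptides that damage bacterial membranes. In mice they are made as inactive precursors and cut to their active form by the matrix metalloproteinase Mmp7 inside Paneth cells. Lyz1 digests bacterial cell walls, Ang4 is a bactericidal member of the angiogenin family, and Itln1 binds sugars of microbial surfaces. Ang4 and Itln1 are also made outside Paneth cells, in goblet and other secretory cells of the colon. The mouse alpha-defensins form a tandem array of near-identical genes whose number varies between strains, and values of single genes depend on how reads were divided among the copies.

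The 5 alpha-defensin members lie on chromosome 8 of GRCm38 (GENCODE M21) between 21065038 and 21735471, a span of 670.4 kb. Gm10104 (current name Defa35) lies from 21065038 to 21065996, Gm15284 (Defa30) from 21134642 to 21135598, Defa22 from 21162277 to 21163249, Defa17 from 21655780 to 21656735 and Defa24 from 21734494 to 21735471, all on the plus strand. Lyz1 lies on chromosome 10 from 117287797 to 117292868, Ang4 on chromosome 14 from 51763878 to 51773590 and Itln1 on chromosome 1 from 171518122 to 171535294, all on the minus strand. All 8 are annotated as protein coding.

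The sequences below are shown because they tell which defensin values can be separated. They are the last 105 coding bases of each gene on GRCm38, within 1 exon and with the stop codon included, which hold much of the active peptide. They were read from chr8:21735273-21735377 for Defa24, chr8:21135399-21135503 for Gm15284, chr8:21656537-21656641 for Defa17, chr8:21065804-21065908 for Gm10104, chr8:21666535-21666639 for the neighbouring non-member Gm15315 (Defa34) and chr8:21163051-21163155 for Defa22. Capitals mark bases that differ from Defa24.
Defa24: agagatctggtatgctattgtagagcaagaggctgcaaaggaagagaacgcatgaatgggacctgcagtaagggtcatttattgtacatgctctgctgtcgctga
Gm15284: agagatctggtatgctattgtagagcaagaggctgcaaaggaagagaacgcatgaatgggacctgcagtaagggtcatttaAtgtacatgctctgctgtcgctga
Defa17: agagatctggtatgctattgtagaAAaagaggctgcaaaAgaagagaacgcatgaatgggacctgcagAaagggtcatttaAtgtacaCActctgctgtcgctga
Gm10104: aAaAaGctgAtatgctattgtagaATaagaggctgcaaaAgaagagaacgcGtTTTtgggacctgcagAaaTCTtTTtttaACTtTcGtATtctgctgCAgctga
Gm15315: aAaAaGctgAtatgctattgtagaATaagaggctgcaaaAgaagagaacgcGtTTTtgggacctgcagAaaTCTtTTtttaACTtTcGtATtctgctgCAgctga
Defa22: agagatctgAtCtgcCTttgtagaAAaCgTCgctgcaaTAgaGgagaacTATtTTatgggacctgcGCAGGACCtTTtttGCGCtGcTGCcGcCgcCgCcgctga
Gm15284 differed from Defa24 at 1 of the 105 bases and Defa17 at 7. Gm10104 differed at 26, and Gm15315 had the same 105 bases as Gm10104. Defa22 stood farthest away, with 39 differences. Over aligned whole transcripts, Defa24 was 98.2% identical to Gm15284 and 95.5% to Defa17, Gm10104 was 98.1% identical to Gm15315, and Defa24 and Gm10104 were 83.9% identical. The defensins measured here thus fell into a Defa24-type set (Defa24, Gm15284, Defa17) and a Gm10104-type set (Gm10104, Gm15315). Of the 50-base windows of each transcript, the share found in no other annotated gene was 71.9% for Defa24, 47.6% for Gm15284, 40.1% for Gm10104, 25.1% for Defa22 and 8.0% for Defa17, against 83.9% for Lyz1, 95.3% for Ang4 and 99.0% for Itln1. Single-gene values within a set are uncertain for this reason, most of all that of Defa17. The reference is not from an ICR mouse.

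In Control colon the 5 alpha-defensins were at or near 0. In IgG Ab colon 4 of them were abundant in every mouse, and in anti-S100a9 Ab colon they were far lower but not at 0 in every mouse. Defa24 was 0.333, 0 and 0.778 FPKM in Control replicates 1, 2 and 3, 330.2, 770.5 and 542 FPKM with IgG Ab, and 12.2, 3.19 and 0.337 FPKM with anti-S100a9 Ab. The lowest IgG Ab sample was far above every sample of the other groups, while the anti-S100a9 Ab and Control samples overlapped. On the log2(FPKM + 0.1) scale the difference was 10.59 (SE 1.16) for IgG Ab against Control and -7.63 (SE 1.16) for anti-S100a9 Ab against IgG Ab (n = 3 mice in each group).

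Gm10104 was 0.199, 0 and 0.230 FPKM in Control, 275, 529 and 368 FPKM with IgG Ab, and 7.58, 1.75 and 0.618 FPKM with anti-S100a9 Ab. Among the alpha-defensin members it alone had 3 groups that did not overlap at all, with every anti-S100a9 Ab sample between the Control and IgG Ab samples. Its log2 differences were 10.78 (SE 0.80) for IgG Ab against Control and -7.44 (SE 0.80) for anti-S100a9 Ab against IgG Ab.

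Gm15284 was listed at 0 in all 3 Control samples, was 68.3, 127 and 99.4 FPKM with IgG Ab, and was 1.86, 0.179 and 0 FPKM with anti-S100a9 Ab. Defa17 was likewise listed at 0 in Control, was 24.3, 46.1 and 34.4 FPKM with IgG Ab, and was 0.673, 0 and 0 FPKM with anti-S100a9 Ab. For both genes the IgG Ab samples stood clear of the other 6, and no fold against Control is given because Control was listed at 0. Their log2 differences between anti-S100a9 Ab and IgG Ab were -7.97 (SE 0.88) for Gm15284 and -7.42 (SE 0.71) for Defa17. Defa22 differed from them. It was listed at 0 in 8 samples and at 0.190 FPKM in IgG Ab replicate 1, below the low-value filter. A value of 0 is read here only as listed at 0, because Gapdh, Ppia and Rps18, which most cells express, did not exceed 0.755, 0.974 and 0.391 FPKM in any sample, whereas Actb was 796 to 1089 FPKM.

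**Figure D1:**
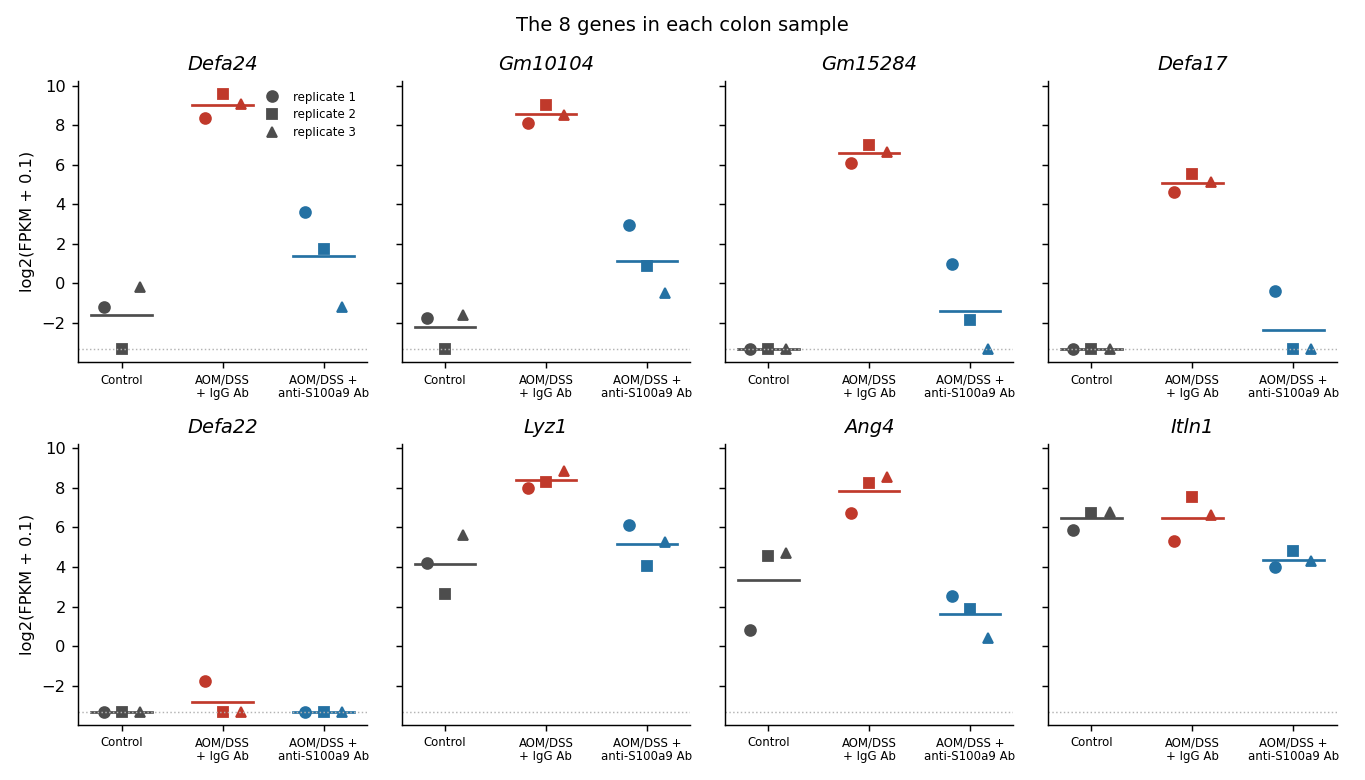
Levels of the 8 genes on the log2(FPKM + 0.1) scale in the Control, IgG Ab and anti-S100a9 Ab groups, with 1 point per mouse (symbols mark replicates 1, 2 and 3), a bar at the mean of the log2 values, and a dotted line at 0 FPKM. Defa24, Gm10104, Gm15284, Defa17, Lyz1 and Ang4 were higher in all 3 IgG Ab samples than in the other 6 samples, Itln1 was lowest in the anti-S100a9 Ab samples, and Defa22 was above 0 in 1 sample only.

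Lyz1 was listed above 0 in Control, at 18.4, 6.17 and 49.2 FPKM, and was 259, 312 and 459 FPKM with IgG Ab and 68.6, 16.6 and 38.5 FPKM with anti-S100a9 Ab. The IgG Ab samples were above all others, and the anti-S100a9 Ab samples overlapped the Control range, with replicate 1 above it. The group means were 24.6 ± 22.2 FPKM (SD, n = 3) in Control, 343 ± 103 with IgG Ab and 41.2 ± 26.1 with anti-S100a9 Ab. The log2 differences were 4.22 (SE 0.73) for IgG Ab against Control and -3.24 (SE 0.73) for anti-S100a9 Ab against IgG Ab, smaller than those of the 4 abundant defensins.

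Lyz2, the lysozyme of macrophages and other myeloid cells, lies beside Lyz1 on chromosome 10 and its transcript was 96.0% identical to that of Lyz1. Its level was 633, 262 and 881 FPKM in Control, 343, 558 and 397 with IgG Ab and 651, 621 and 755 with anti-S100a9 Ab, and neither difference passed the test (log2 difference -0.32, SE 0.41, adjusted p = 0.65 for IgG Ab against Control, and 0.67, SE 0.41, adjusted p = 0.26 for anti-S100a9 Ab against IgG Ab, limma). Lyz1 made up 2.82%, 2.30% and 5.29% of the summed FPKM of both lysozymes in Control, 43.1%, 35.9% and 53.6% with IgG Ab, and 9.54%, 2.61% and 4.85% with anti-S100a9 Ab. The sum itself was 617 ± 333, 776 ± 151 and 717 ± 77.5 FPKM (SD, n = 3 each) in the same order. How much of the low Lyz1 level in Control and with anti-S100a9 Ab came from Lyz2 reads given to Lyz1 was not tested.

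**Figure D2:**
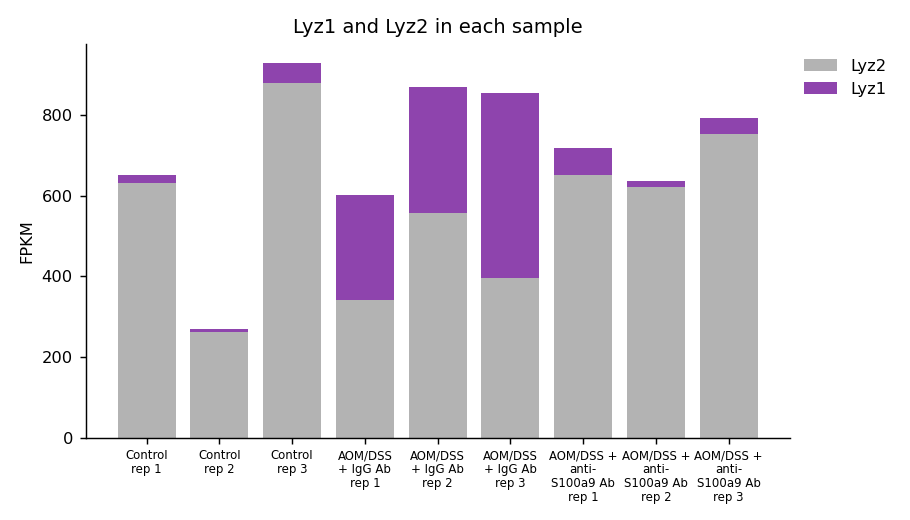
Stacked bars of Lyz2 (grey) and Lyz1 (purple) in FPKM for each of the 9 colon samples. Lyz1 forms 35.9% to 53.6% of the bar for the IgG Ab mice and at most 9.54% for the other mice.

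Ang4 was 1.67, 23.6 and 25.9 FPKM in Control, 106, 301 and 371 FPKM with IgG Ab, and 5.64, 3.59 and 1.23 FPKM with anti-S100a9 Ab. The IgG Ab samples were highest, and unlike the defensins the mean with anti-S100a9 Ab (3.49 ± 2.21 FPKM) lay below that of Control (17.1 ± 13.4 FPKM, SD, n = 3 each), although Control replicate 1 fell within the anti-S100a9 Ab range. The log2 differences were 4.47 (SE 1.03) for IgG Ab against Control and -6.23 (SE 1.03) for anti-S100a9 Ab against IgG Ab.

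Itln1 had another pattern. It was 58.5, 107 and 111 FPKM in Control, 39.1, 189 and 100.1 FPKM with IgG Ab, and 16.2, 28.1 and 19.6 FPKM with anti-S100a9 Ab. Control and IgG Ab samples overlapped (log2 difference 0.03, SE 0.52), and all 3 anti-S100a9 Ab samples lay below the other 6 (log2 difference -2.12, SE 0.52, against IgG Ab). The order of the group means was thus IgG Ab, anti-S100a9 Ab and Control for Defa24, Gm10104, Gm15284, Defa17 and Lyz1, but IgG Ab, Control and anti-S100a9 Ab for Ang4 and Itln1. Of neighbours in these orders, the lower pair did not overlap only for Gm10104 and Itln1.

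Of the 7 members in the fit, 6 were more than 2-fold higher with IgG Ab than in Control, a mark that 9.33% of the 15278 genes tested reached, and the same 6 did not overlap, as did 20.7% of all genes in that direction. All 7 were more than 2-fold lower with anti-S100a9 Ab than with IgG Ab, which held for 9.28% of all genes, and all 7 did not overlap, against 28.5% of all genes. The median log2 difference of the 7 was 8.41 in the first comparison and -7.42 in the second, beside 0.09 and -0.06 over all genes. The genes were chosen on these contrasts, so nothing is read from these counts. Of the 15278 genes, 399 reached 0.1 FPKM in 3 samples only when the IgG Ab samples were counted, Gm15284 and Defa17 among them. Whether such genes entered the fit depended on their IgG Ab values, so they are described below by their values, and counts that include them are also given without them. Both comparisons use the same 3 IgG Ab mice.

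The comparison of anti-S100a9 Ab with Control was not used in choosing the genes, although its samples took part in the other contrasts, and it asks what remained of the programme with the antibody. Gm15284 and Defa17, listed at 0 in Control and in 1 or 2 of the anti-S100a9 Ab samples, are not counted here. With limma, 0 of the other 5 tested members had an adjusted p under 0.05, as against 0.00655% of all genes in each direction, and 3 of the 5 had an unadjusted p under 0.05, as did 16.0% of all genes. Of the 5, 1 was higher and 1 lower without overlap, against 17.3% and 13.7% of all genes. The 3 with an unadjusted p under 0.05 were Gm10104, which was higher in every anti-S100a9 Ab sample than in any Control sample (log2 difference 3.34, SE 0.80, adjusted p = 0.30), Itln1, which was lower in every one (-2.09, SE 0.52, adjusted p = 0.30), and Defa24, whose samples overlapped (2.95, SE 1.16, adjusted p = 0.30). The values for Lyz1 (0.99, SE 0.73, adjusted p = 0.50) and Ang4 (-1.76, SE 1.03, adjusted p = 0.40) were smaller relative to their errors. Across the alternative settings the adjusted p ranged from 0.18 to 0.70 for Gm10104, from 0.13 to 0.73 for Itln1 and from 0.23 to 0.73 for Defa24. With 3 mice per group these results do not show that the levels with anti-S100a9 Ab equalled those of Control.

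**Figure D3:**
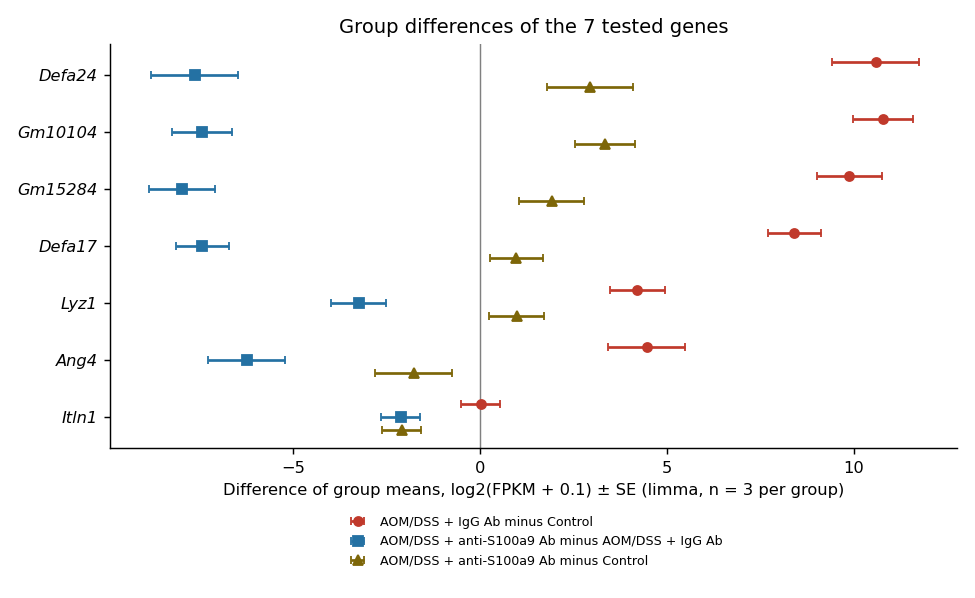
Group differences of the 7 tested genes on the log2(FPKM + 0.1) scale, with limma standard errors as bars (n = 3 per group), for IgG Ab minus Control (red circles), anti-S100a9 Ab minus IgG Ab (blue squares) and anti-S100a9 Ab minus Control (brown triangles). Itln1 lies at 0.03 in the first comparison while the other 6 genes lie between 4.22 and 10.78.

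Within the anti-S100a9 Ab group the mice differed. Replicate 1 held the highest value of 6 of the 8 members. As a percentage of the IgG Ab mean, Defa24 was 2.23% in replicate 1, 0.584% in replicate 2 and 0.0615% in replicate 3. Gm10104 was 1.94%, 0.449% and 0.158% in the same order, and Ang4 was 2.17%, 1.38% and 0.474%. Lyz1, with 20.0%, 4.84% and 11.2%, and Itln1, with 14.8%, 25.7% and 17.9%, had larger percentages. The Control mean on the same scale was 0.0676% for Defa24, 0.0366% for Gm10104, 6.59% for Ang4, 7.16% for Lyz1 and 84.3% for Itln1. Leaving out anti-S100a9 Ab replicate 1 lowered the log2 difference against Control from 2.95 to 1.84 for Defa24 and from 3.34 to 2.43 for Gm10104. Within the IgG Ab group, replicate 1 held the lowest value of 7 of the 8 members, and the highest value was 1.77 (Lyz1) to 4.82 (Itln1) times the lowest among the 7 tested members.

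Summed over 25 alpha-defensins named in the files, the level was 0.532, 0.307 and 1.01 FPKM in Control, 754, 1539 and 1108 with IgG Ab and 24.5, 5.34 and 1.34 with anti-S100a9 Ab. The sum depends less than single values on how reads were divided among these 25 genes. It is not free of that, because FPKM divides by transcript length, which was 419 bases for Defa24 and 375 for Gm15315. Reads given to no gene or to a copy outside the sum are missing from it. It was 0.229% to 0.416% of all FPKM in the IgG Ab samples, and its mean with anti-S100a9 Ab was 0.916% of that with IgG Ab. The ratio of highest to lowest sample was 2.04 within the IgG Ab group and 18.3 within the anti-S100a9 Ab group.

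The make-up of the summed signal was alike in the 3 IgG Ab mice. Defa24 contributed 47.6 ± 3.34% (SD, n = 3), Gm10104 34.7 ± 1.66%, Gm15284 8.75 ± 0.456%, Gm15315 4.45 ± 1.36% and Defa17 3.11 ± 0.116%. In anti-S100a9 Ab replicate 1, whose sum was the highest of its group, the shares were 49.8%, 31.0%, 7.60%, 6.66% and 2.75%. Those of Gm15284, Gm15315 and Defa17 rested on only 1.86, 1.63 and 0.673 FPKM. How shared reads were divided among the copies also enters all these shares. In the anti-S100a9 Ab samples with lower sums every share rested on a few FPKM or less, and these are shown without comparison.

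**Figure D4:**
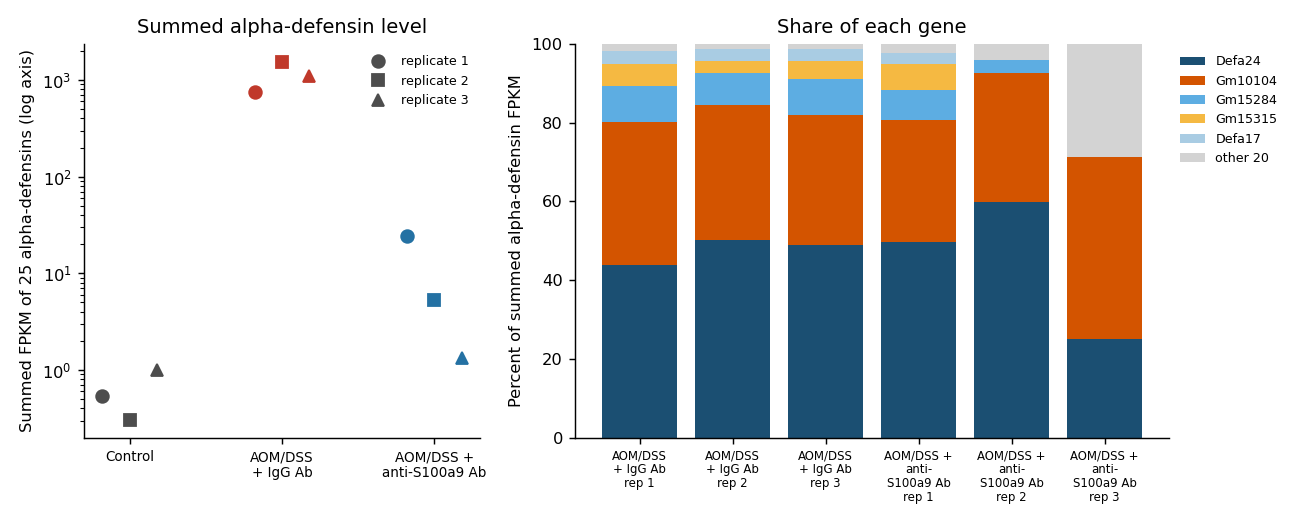
Left, summed FPKM of the 25 alpha-defensins in each mouse on a log axis. Right, the share of that sum from Defa24, Gm10104, Gm15284, Gm15315, Defa17 and the other 20 genes in each AOM/DSS sample. The sum is 754 to 1539 FPKM with IgG Ab and 1.34 to 24.5 FPKM with anti-S100a9 Ab, and the bars of the 3 IgG Ab samples and of anti-S100a9 Ab replicate 1 have nearly the same division. In that replicate the shares of Gm15284, Gm15315 and Defa17 rest on 1.86, 1.63 and 0.673 FPKM.

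Besides the members, 20 other alpha-defensins were examined. Of these, 12 were listed at 0 in all samples, and 4 entered the fit, all 4 only when the IgG Ab samples were counted. No test of them is given for this reason. Gm15315, Defa5 and Gm15292 also share sequence with the members, whereas AY761185 had 100% of its 50-base windows in no other gene. Gm15315 was 0, 0.307 and 0 FPKM in Control, 43.0, 46.2 and 51.5 FPKM with IgG Ab and 1.63, 0 and 0 FPKM with anti-S100a9 Ab. Defa5 reached 4.08, 4.91 and 5.50 FPKM with IgG Ab and Gm15292 8.94, 12.7 and 3.19 FPKM, and both were listed at 0 in Control and did not exceed 0.228 FPKM with anti-S100a9 Ab. In these 3 genes the IgG Ab samples stood above the other 6. AY761185, the remaining gene in the fit, did not follow them and was low throughout. It was listed at 0 in Control, and was 0, 0.122 and 0 FPKM with IgG Ab and 0.117, 0 and 0.385 FPKM with anti-S100a9 Ab. The 12 genes listed at 0 had a median of 3.80% of 50-base windows found in no other gene, and the 8 with some signal had a median of 44.1%.

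Other Paneth cell products were then counted from a list of 17 genes, of which 16 were in the files and 15 were tested. This list and those below were chosen with earlier results of these data known. Their counts and adjusted p are therefore a description and no independent test. Against Control, 9 rose with IgG Ab (Mmp7, Reg3b, Reg3g, Pnliprp2, Habp2, Rnase1, Fgfrl1, Nupr1 and Pla2g2f, against 8.18% of all genes in that direction), 1 fell (Ntf3, a neurotrophin, against 3.01% of all genes in that direction) and 5 were not called. Against IgG Ab, 8 fell with anti-S100a9 Ab, against 14.4% of all genes, and 1 (Ntf3) rose, against 6.72% of all genes. Habp2 and Rnase1 entered the fit only through the IgG Ab samples, and without such genes 7 of 13 rose (7.27% of 14879 genes) and 6 of 13 fell with the antibody (13.5%). Ntf3 had log2 differences of -1.49 (adjusted p = 0.039, limma) and 1.48 (adjusted p = 0.029), and no gene of the list fell in 9 of 18 alternative settings or rose with the antibody in 4. The list median was 1.82 for the first comparison and -2.53 for the second, beside 0.09 and -0.06 over all genes. With anti-S100a9 Ab against Control, 0 of the 15 had an adjusted p under 0.05 in limma and 4 an unadjusted p under 0.05, with a median of -0.17. Mmp7, the enzyme that activates mouse alpha-defensins, was 0.0353, 0.125 and 0.724 FPKM in Control, 263, 148 and 353 FPKM with IgG Ab and 3.10, 1.17 and 0.173 FPKM with anti-S100a9 Ab. Its IgG Ab samples stood apart from the other 6, as those of Defa24 did.

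Habp2, a serine protease that binds hyaluronan, was at most 0.0264 FPKM in Control, 8.89, 13.1 and 8.32 FPKM with IgG Ab and 0.324, 0.0298 and 0 FPKM with anti-S100a9 Ab. The lipase-related Pnliprp2 was 0.764, 1.88 and 1.48 FPKM in Control, 701, 89.2 and 77.4 FPKM with IgG Ab and 4.20, 1.68 and 0.618 FPKM with anti-S100a9 Ab. The C-type lectins Reg3b and Reg3g, which are antibacterial and are also induced in other epithelial cells, rose with IgG Ab (log2 differences 8.43, SE 1.62, adjusted p = 0.014, and 6.02, adjusted p = 0.0037, limma). Their falls with anti-S100a9 Ab did not pass the test (adjusted p = 0.098 and 0.057), and anti-S100a9 Ab replicate 2 held 87.4 FPKM of Reg3b, within the IgG Ab range of 45.0 to 193 FPKM. That mouse was not the one with the most defensin.

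Of 30 regulators of Paneth cells and the crypt base, 29 were tested. With IgG Ab against Control 4 rose (Slc30a2, Cd24a, Ephb3 and Wnt3), 0 fell and 25 were not called, against 8.18% and 3.01% of all genes that rose and fell, and 15 of the 29 had an unadjusted p under 0.05, as did 29.5% of all genes. With anti-S100a9 Ab against IgG Ab 6 fell (Slc30a2, Cd24a, Ephb3, Ephb2, Dll4 and Wnt3) and 3 rose (Kcnn3, Fzd5 and Kit), against 14.4% and 6.72% of all genes. Wnt3 entered the fit only through the IgG Ab samples, and without it 3 of 28 rose with IgG Ab and 5 of 28 fell with the antibody. The list medians were 0.18 and -0.19. Slc30a2, a zinc transporter of secretory granules, was 0.146, 0.105 and 0.135 FPKM in Control, 214, 68.1 and 63.4 FPKM with IgG Ab and 5.04, 0.552 and 0.104 FPKM with anti-S100a9 Ab (log2 differences 8.74, SE 1.00, adjusted p = 0.0018, and -6.79, SE 1.00, adjusted p = 0.0065). Wnt3, a ligand that Paneth cells supply to stem cells, was low throughout, at 0.0229 ± 0.0202 FPKM in Control, 0.483 ± 0.196 with IgG Ab and 0.0536 ± 0.0335 with anti-S100a9 Ab (SD, n = 3 each). The transcription factor Sox9, which Paneth cells need, was 13.8 ± 4.07 FPKM in Control and 34.7 ± 19.5 FPKM with IgG Ab and was not called (log2 difference 1.23, adjusted p = 0.065). The secretory lineage factors Atoh1, Gfi1, Spdef and Xbp1 were not called in either comparison, with log2 differences of -0.99, -0.10, 0.18 and -0.06 for IgG Ab against Control.

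**Figure D5:**
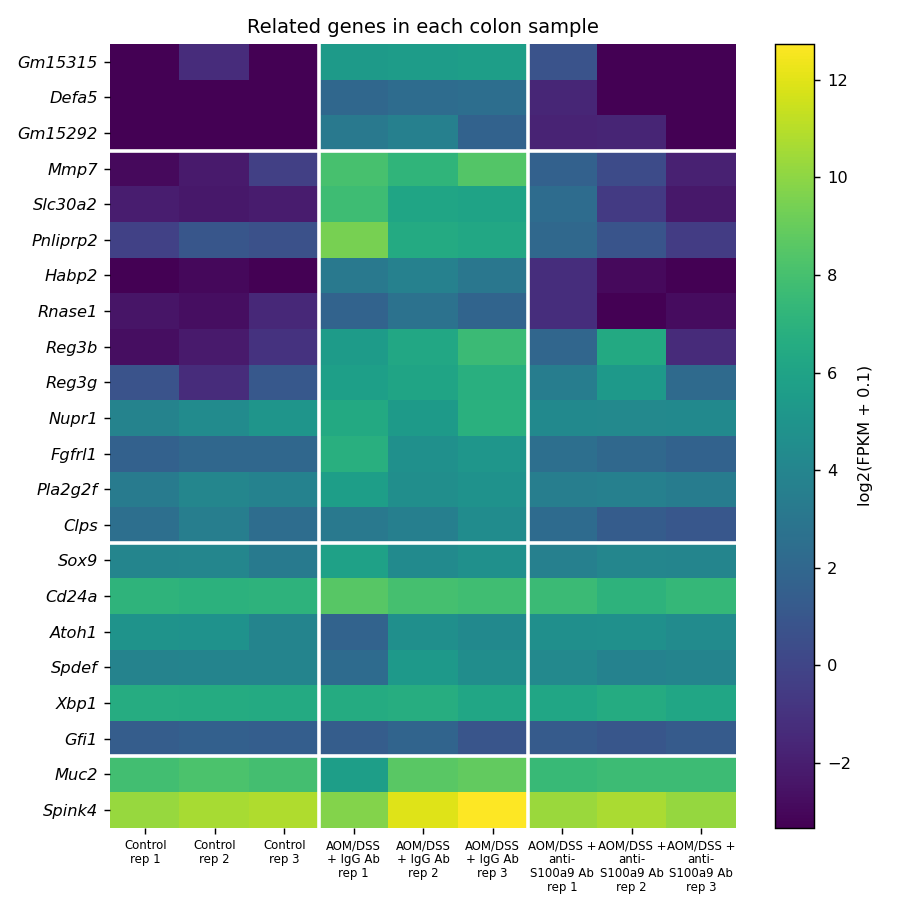
Colour gives log2(FPKM + 0.1) of 22 related genes (rows) in the 9 colon samples (columns), with white lines between the 3 groups and between gene sets: other alpha-defensins, Paneth cell products with the zinc transporter Slc30a2, regulators, and the goblet cell genes Muc2 and Spink4. The genes were chosen after their values were seen. The upper rows are bright in the 3 IgG Ab samples, whereas Xbp1 and Gfi1 show little change across the 9 samples.

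Antimicrobial genes outside the Paneth cell list were called in part. Of 30 listed, 24 were tested and 7 rose with IgG Ab against Control (S100a9, S100a8, Lcn2, Ltf, Wfdc15b, Nos2 and Pglyrp1), against 8.18% of all genes, with 0 falling and 10 of the 24 at an unadjusted p under 0.05, against 29.5%. With anti-S100a9 Ab against IgG Ab 6 fell, against 14.4% of all genes, and 0 rose, with 7 of the 24 at an unadjusted p under 0.05, against 39.1%. Without Wfdc15b, which entered the fit only through the IgG Ab samples, 6 of 23 rose and 5 of 23 fell. The list medians were 0.57 and -0.39. Abundant colon products such as Zg16, Retnlb, Lypd8 and Reg4 were not called in either comparison. S100a9, whose protein the antibody neutralizes, was 63.1, 173 and 267 FPKM with IgG Ab and 10.3, 11.6 and 5.54 FPKM with anti-S100a9 Ab. Within the latter group replicates 1 and 2 were close in S100a9, and replicate 3 was lowest in both S100a9 and summed defensin.

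Likeness to the defensin pattern was measured as Pearson's r over the 9 samples between each gene's log2 values and the mean log2 values of the 5 alpha-defensin members, among 13076 genes of at least 1 FPKM in the mean of a group. It is a description over 9 samples that fall into groups, with no test. The most alike genes outside the array were Adam12 (r = 0.987), Trem1 (0.987), Habp2 (0.986), Slc30a2 (0.986), Lect2 (0.985), Mmp7 (0.984), Igf1 (0.982) and Prss22 (0.981). Among the other members, r was 0.93 for Lyz1, 0.81 for Ang4 and 0.25 for Itln1. By this measure Lyz1 ranked 186 and Itln1 ranked 5922, and the non-member S100a9, with r = 0.93, ranked 174.

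The label of these genes was checked against markers. The defensins, Lyz1, Mmp7, Slc30a2 and Habp2 were all highest with IgG Ab, but Itln1 did not follow them, Ang4 followed in part, and Mptx2, another Paneth cell product, was 0.717, 75.4 and 11.5 FPKM in Control, 46.8, 89.1 and 0.773 FPKM with IgG Ab and 3.99, 2.53 and 0.347 FPKM with anti-S100a9 Ab, with no call. In bulk tissue, fewer cells of a type and less RNA per cell cannot be told apart. Of 24 genes of small intestinal enterocytes 15 were tested, of which 1 rose (Slc10a2) and 4 fell (Dpp4, Fabp6, Slc15a1 and Slc5a1) with IgG Ab against Control, against 8.18% and 3.01% of all genes, and 4 rose with anti-S100a9 Ab against IgG Ab, against 6.72% (medians -0.86 and 1.05). Slc10a2, the bile acid transporter of the ileum, was 0.953, 1.05 and 0.866 FPKM in Control, 5.42, 5.99 and 3.14 FPKM with IgG Ab and 2.23, 0.794 and 3.28 FPKM with anti-S100a9 Ab (log2 difference 2.18, SE 0.46, adjusted p = 0.021 for IgG Ab against Control, limma). Mttp, which loads lipid onto lipoproteins, was also higher without overlap but was not called (log2 difference 0.82, SE 0.27, adjusted p = 0.084). Sis, Lct, Fabp1, Apoa1, Apoa4, Apoc3, Cyp3a11 and Slc2a2 did not exceed 0.399 FPKM in any sample. The summed level of all 24 genes was lower with IgG Ab (51.3 to 117 FPKM) than in Control (179 to 210.4 FPKM) or with anti-S100a9 Ab (133 to 197 FPKM). Rbp2, Slc5a1, Slc15a1, Fabp6 and Fabp2 made up most of the Control sum, with Control means of 49.5, 39.9, 37.3, 22.6 and 18.6 FPKM. These genes were thus present in normal colon, and the sum does not single out small intestinal cells.

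Of 12 tested genes of goblet and deep crypt secretory cells, 1 (Fxyd3) rose with IgG Ab and fell with anti-S100a9 Ab. That is 8.33% each, against 8.18% and 14.4% of all genes, so nothing is read from these counts. The other 11 were not called in either comparison (medians -0.53 and 0.21). Their summed level was 7121 to 9703 FPKM in Control, 1960.1 to 12056 FPKM with IgG Ab and 5154 to 6978 FPKM with anti-S100a9 Ab. IgG Ab replicate 1 stood apart from the other IgG Ab samples with 51.6 FPKM of the mucin Muc2, against 398 and 461 FPKM. Without this replicate, 3 goblet genes rose with IgG Ab and 4 fell with anti-S100a9 Ab. Also without it, 6 of the 7 tested members remained more than 2-fold higher than Control and 7 more than 2-fold lower with anti-S100a9 Ab.

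Markers of several other cell types changed alongside, to be read against the 8.18% of all genes that rose and 3.01% that fell with IgG Ab, and the 14.4% that fell and 6.72% that rose with anti-S100a9 Ab. Macrophage genes differed from these: of 14 tested, 0 were called with IgG Ab against Control. With anti-S100a9 Ab against IgG Ab, 1 (Ms4a7) rose and 0 fell (medians 0.03 and 0.13). Of 15 tested neutrophil genes, 9 rose with IgG Ab (S100a8, S100a9, Csf3r, Cxcr2, Ltf, Mmp8, Prtn3, Retnlg and Stfa2) and 8 fell with anti-S100a9 Ab (medians 3.18 and -1.60), and without the 3 that entered the fit only through the IgG Ab samples (Mmp8, Mpo and Stfa2) 7 of 12 rose and 6 of 12 fell. The list had a summed level of 160.1 to 309.5 FPKM in Control, 196 to 776 FPKM with IgG Ab and 202 to 289 FPKM with anti-S100a9 Ab. Ly6g and Cd177, which were not called, made up most of that sum in Control and with anti-S100a9 Ab. Ly6g was 88.8, 107 and 117 FPKM in Control, 26.1, 96.0 and 95.2 with IgG Ab and 82.1, 150 and 138 with anti-S100a9 Ab. Cd177 had means of 126, 105 and 88.6 FPKM in the same order. Of the granule genes, Ltf (log2 difference 3.18, SE 0.65, adjusted p = 0.019, limma) and Prtn3 (1.75, SE 0.45, adjusted p = 0.039) rose with IgG Ab, Ngp was 0.113, 4.47 and 5.33 FPKM with IgG Ab against 0 in Control (adjusted p = 0.051), and Mpo and Elane did not exceed 0.314 FPKM. Of 13 tested squamous epithelium genes, 6 rose (Mt4, Krt14, Krt13, Krt4, Dsg3 and Krt6a) and 7 fell (medians 1.38 and -2.09), and without Dsg3, Krt6a and Krt5, which entered the fit only through the IgG Ab samples, 4 of 10 rose and 5 of 10 fell. The list had summed levels of 4.80 to 6.04, 334 to 1648 and 4.21 to 41.0 FPKM, of which Mt4, a metallothionein, made up most. Mt4 was 1592, 599 and 295 FPKM with IgG Ab and 34.1, 3.55 and 0 FPKM with anti-S100a9 Ab. Without Mt4 the summed level was 3.71 to 6.04 FPKM in Control, 13.1 to 56.3 FPKM with IgG Ab and 4.21 to 6.83 FPKM with anti-S100a9 Ab. The basal keratin Krt14 was 0.932, 0.797 and 1.68 FPKM in Control, 37.1, 4.63 and 18.6 FPKM with IgG Ab and 1.95, 1.74 and 0.819 FPKM with anti-S100a9 Ab (log2 differences 3.66, SE 0.69, adjusted p = 0.013, and -3.30, SE 0.69, adjusted p = 0.017, limma). Krt13 and Krt4 rose by 3.54 (adjusted p = 0.016) and 3.39 (adjusted p = 0.014) with IgG Ab on the log2 scale, whereas Krt5, Trp63, Krt1, Sprr3, Sprr1b and Dsg1a did not exceed 0.468 FPKM. Of 8 tested pancreatic acinar genes, 2 rose and fell (Pnliprp1 and Rnase1) and 1 (Sycn) fell with IgG Ab (medians -0.25 and 0.13). Rnase1 entered the fit only through the IgG Ab samples, and in 11 of 18 alternative settings no acinar gene was called lower (Sycn had a log2 difference of -3.15, adjusted p = 0.043, limma). The list had summed levels of 5180.4 to 8884 FPKM in Control, 1776 to 4321 FPKM with IgG Ab and 2509 to 3142 FPKM with anti-S100a9 Ab. Sycn, Cela1 and Zg16, named above as an abundant colon product, made up most of this sum except in IgG Ab replicate 1. There Pnliprp1 made up most. Mean Sycn was 3553, 497 and 622 FPKM and mean Zg16 3362, 1951 and 2154 FPKM in Control, IgG Ab and anti-S100a9 Ab. Pnliprp1 was 1405, 430.3 and 148 FPKM with IgG Ab, and the 9 most typical acinar enzymes (Cpa1, Cela3b, Pnlip, Prss1, Prss2, Try4, Try5, Amy2a5 and Cel) did not exceed 0.216 FPKM. Of 19 tested colon epithelium genes, 6 fell and 1 (Slc9a3) rose with IgG Ab against Control and 7 rose with anti-S100a9 Ab against IgG Ab (medians -0.93 and 1.03). Slc9a3 had a log2 difference of 3.05 (adjusted p = 0.037, limma), and in 8 of 18 alternative settings no gene of this list was called higher. The part of these cell types in the defensin levels was not tested.

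Upstream sequence was available for 4 of the 8 members, Defa22, Lyz1, Ang4 and Itln1, and not for the 4 abundant defensins. Paneth cell genes are known targets of Wnt signalling through TCF/LEF factors, whose core was searched as CTTTGA or CTTTGT on both strands of the 250 bases before each start. Of 32851 RefSeq promoters on GRCm38.p6, 27.6% held 1 or more matches, 5.2% 2 or more and 0.8% 3 or more. Defa22 held 3 matches, Lyz1 and Ang4 held 1 each, and Itln1 and Lyz2 held 0. The windows are shown for the lysozyme pair, which differed in level, and for Ang4 and Defa22, from chr10:117292869-117293118 (Lyz1), chr10:117282273-117282522 (Lyz2), chr14:51773591-51773840 (Ang4) and chr8:21162027-21162276 (Defa22), those of Lyz1, Lyz2 and Ang4 on the minus strand and that of Defa22 on the plus strand. Capitals mark the matches.
Lyz1: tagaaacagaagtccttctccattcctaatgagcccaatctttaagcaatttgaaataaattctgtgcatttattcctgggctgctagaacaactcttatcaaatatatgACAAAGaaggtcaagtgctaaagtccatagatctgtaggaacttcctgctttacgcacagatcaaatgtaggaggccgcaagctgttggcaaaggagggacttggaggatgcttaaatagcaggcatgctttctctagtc
Lyz2: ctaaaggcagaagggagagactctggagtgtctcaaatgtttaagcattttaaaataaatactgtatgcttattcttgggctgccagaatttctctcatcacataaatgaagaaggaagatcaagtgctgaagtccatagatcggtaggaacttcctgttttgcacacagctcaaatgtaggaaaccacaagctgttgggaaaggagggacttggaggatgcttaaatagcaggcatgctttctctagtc
Ang4: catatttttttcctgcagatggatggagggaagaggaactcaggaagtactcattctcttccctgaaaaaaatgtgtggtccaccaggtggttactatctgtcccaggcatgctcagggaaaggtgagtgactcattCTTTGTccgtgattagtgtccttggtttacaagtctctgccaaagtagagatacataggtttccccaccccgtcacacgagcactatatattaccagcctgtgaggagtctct
Defa22: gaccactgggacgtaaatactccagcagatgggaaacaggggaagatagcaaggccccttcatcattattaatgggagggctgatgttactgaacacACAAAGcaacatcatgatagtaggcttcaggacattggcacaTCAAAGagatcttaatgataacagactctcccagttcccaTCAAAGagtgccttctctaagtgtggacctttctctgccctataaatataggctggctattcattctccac
Defa22, with the most matches, was the member with the least signal in these samples. A match describes the letters and is neither a binding site nor a cause.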

How the data were processed

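RNA sequencing of colorectal tissue from 9 mice (3 Control, 3 AOM/DSS + IgG Ab and 3 AOM/DSS + anti-S100a9 Ab, numbered as biological replicates by the labels) was used. The authors deposited 1 file per mouse with decimal values per gene symbol, read here as FPKM from their form, since their unit is stated in no source used here. The submitters' processing notes name TopHat, Cufflinks, HTSeq, DESeq and GRCm38 without versions. FPKM totals were 308377 to 408811 per sample. Fragment counts are unknown, so no counting error is given.

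Repeated symbols were summed. Values were analyzed as log2(FPKM + 0.1) where a gene reached 0.1 FPKM in 3 or more samples (15278 genes), with limma 3.58.1 in R 4.3.3 (all 9 samples, intensity trend, Benjamini-Hochberg adjustment over all genes, two-sided). This scale understates changes of low genes. DESeq, used by the authors, needs counts and was not repeated. The members and gene lists were chosen with earlier results of these data known. Other genes were named by a rule: the largest called differences in each list, and the 8 genes most alike in pattern. Mt4, Sox9, Mptx2, Ntf3, Sycn, Cela1, Slc9a3, Slc10a2, Mttp, the named neutrophil and squamous genes, the secretory lineage factors and the negative examples were named after their values were seen. One alpha-defensin is not reported here and entered no list, sum or count of alpha-defensins. Sequences and positions came from GENCODE M21 and RefSeq, and transcripts were aligned with Biopython 1.88. Figures used matplotlib 3.10.9. The fit was tested on simulated data. Alternatives covered the pseudocount, filter, scaling, trend, samples in the fit, replicate block and each sample left out.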

Additional observations from a re-analysis of the deposited data

How the results depend on the processing

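Under 18 alternative settings, the count of members more than 2-fold higher with IgG Ab than in Control stayed at 6, the count more than 2-fold lower with anti-S100a9 Ab stayed at 7, and the count with an adjusted p under 0.05 for anti-S100a9 Ab against Control stayed at 0. The replicate block, which pairs mice by number, gave the same counts of 6, 7 and 0, and moved the acinar falls from 1 to 0. The labels do not say that equal numbers mark a shared animal or batch, and correlations of same-numbered samples' deviations ran from -0.187 to 0.249. Of 252 member differences under alternatives, 11 moved by more than the spread between replicates, all 11 under another pseudocount, which sets the size of a change from 0: for Defa17 against Control, 5.12 with a pseudocount of 1 and 11.72 with 0.01. Quantile normalization moved the median of all genes for IgG Ab against Control from 0.09 to -0.03. Counts in other lists moved more. With IgG Ab against Control, other Paneth cell products rose in 6 to 9 genes (9 in the main setting), regulators in 2 to 5 (4), antimicrobial genes in 3 to 7 (7), neutrophil genes in 4 to 10 (9) and squamous genes in 3 to 6 (6). With anti-S100a9 Ab against IgG Ab the falls numbered 7 to 9 (8), 2 to 7 (6), 4 to 8 (6), 2 to 8 (8) and 1 to 7 (7) in the same order, and regulator rises with the antibody 1 to 5 (3). Enterocyte falls against Control numbered 0 to 5 (4), rises against Control 0 to 2 (1) and rises with the antibody 1 to 7 (4). Macrophage rises with the antibody numbered 0 to 2 (1). Colon epithelium falls against Control numbered 1 to 10 (6) and rises with anti-S100a9 Ab 1 to 9 (7), and goblet cell rises numbered 1 to 3 (1) and falls 1 to 4 (1), both highest without IgG Ab replicate 1. Counts of 1 gene fell to 0 in 9 settings for the fall of other Paneth cell products, in 4 for their rise with the antibody, in 8 for the rise of colon epithelium genes and in 11 for the fall of acinar genes. Among settings that left out 1 mouse, the lowest counts came without Control replicate 2 for antimicrobial rises (3), squamous rises (3) and colon falls (1), without Control replicate 1 or 2 for enterocyte falls (0), without IgG Ab replicate 3 or any anti-S100a9 Ab replicate for enterocyte rises with the antibody (1), without anti-S100a9 Ab replicate 1 or 3 for neutrophil falls (2), without anti-S100a9 Ab replicate 2 for squamous falls (1) and colon rises (1), and without IgG Ab replicate 3 or any anti-S100a9 Ab replicate for regulator falls (2). The causes were not tested. Depth is unknown, and 3 mice per group limit every comparison with Control.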
